A study of Homo sapiens with 2 samples.

Results

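AP-1 is a dimeric transcription factor assembled from JUN, FOS and ATF proteins, and 6 of its genes, JUN, JUNB, JUND, FOS, FOSL2 and ATF3, were examined in the H3K27ac HiChIP of KYSE180 cells. A loop was assigned to a gene if either of its bins overlapped the 10 kb on either side of the 5′ end of the gene on hg19. This rule uses position only, and it gave 56 loops with 58 contacts, 0.175% of the 31950 loops listed. KYSE180 is an established esophageal squamous cell carcinoma (ESCC) line. The cells carried no targeted knockdown and were transfected with a non-targeting siRNA, and 2 libraries, labelled 1 and 2, shared this 1 condition. In HiChIP, ligated read pairs are enriched with an antibody, here against H3K27ac, a histone modification found at enhancers and promoters in use, so a loop reports contact between a pair of marked regions. The methods describe the called loops as associated with active p63 regions, and 1 list was deposited for both libraries, so the values have no replicate spread and no condition could be compared.

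AP-1 proteins pair through a leucine zipper, and an adjacent basic region binds DNA. JUN proteins can pair with themselves or with FOS proteins, whereas FOS proteins need a JUN partner. The dimers bind the AP-1 site TGANTCA or the related cAMP response element TGACGTCA, and in squamous epithelium they are known for their part in the expression of keratinocyte genes and in the response to growth factors and stress. Many AP-1 genes are immediate early genes, which are transcribed within minutes of a stimulus.

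The promoters are shown for JUNB and FOS, the genes with the most and the fewest loops, and for JUND and FOSL2, whose promoters hold a motif bound by AP-1 or a related factor. The sequences were taken from RefSeq (GRCh38.p14) by gene symbol, 250 bases up to the transcription start in 5′ to 3′ direction of the gene, and their coordinates are on another build than the loops. JUNB lies at chr19:12791236-12791485 on the plus strand, FOS at chr14:75278578-75278827 on the plus strand and JUND at chr19:18281623-18281872 on the minus strand. For FOSL2, 29 bases at chr2:28392851-28392879 on the plus strand are shown, which span the start. Capitals mark TATAAA in JUNB and FOS, TGACGTCA in JUND and TGACTCA in FOSL2.
JUNB: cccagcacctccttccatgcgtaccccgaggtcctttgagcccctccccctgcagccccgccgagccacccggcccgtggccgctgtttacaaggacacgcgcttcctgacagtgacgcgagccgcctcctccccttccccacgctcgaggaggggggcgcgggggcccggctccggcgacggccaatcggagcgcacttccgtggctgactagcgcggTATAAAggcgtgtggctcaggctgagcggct
FOS: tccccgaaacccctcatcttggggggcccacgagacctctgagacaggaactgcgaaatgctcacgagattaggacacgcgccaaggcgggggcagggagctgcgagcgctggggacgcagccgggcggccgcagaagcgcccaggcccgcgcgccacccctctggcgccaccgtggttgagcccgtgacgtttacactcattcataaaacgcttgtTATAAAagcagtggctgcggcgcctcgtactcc
JUND: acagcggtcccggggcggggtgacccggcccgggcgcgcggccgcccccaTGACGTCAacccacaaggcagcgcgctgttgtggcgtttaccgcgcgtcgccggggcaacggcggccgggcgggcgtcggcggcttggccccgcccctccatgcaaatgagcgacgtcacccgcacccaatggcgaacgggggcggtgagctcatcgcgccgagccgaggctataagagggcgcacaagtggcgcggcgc
FOSL2: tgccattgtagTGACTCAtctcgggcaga

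RefSeq held a promoter for each of the 6 genes and 2 for ATF3. Over the 300 bases from 250 before to 50 after the start, TGANTCA, searched on both strands, was found for FOSL2 alone, with its first base 4 bases after the start. TGACGTCA, which reads the same on either strand, was found for JUND alone, at 1 site 200 bases before the start. TGANTCA occurred in 7.71% and TGACGTCA in 1.85% of the 35116 promoters of the same length. The CArG box, the binding motif of serum response factor, was found in none of the 7 promoters and in 1.29% of all. Sequence farther upstream was not searched, so this absence holds for these 300 bases only. TATAAA on the strand of the gene lay 31 bases before the start of JUNB and 33 bases before that of FOS. In the second ATF3 promoter it lay much farther upstream, with its first base at -230 relative to the start. TATAAA at any position in the 300 bases was found in 7.33% of all promoters. This last motif was chosen after the sequences were seen.

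Loops were listed for 5 of the 6 genes, and JUNB and JUND held 41 of the 56. JUNB had 26 loops (exact 95% Poisson interval 17.0 to 38.1), JUND 15 (8.40 to 24.7) and FOSL2 8 (3.45 to 15.8). ATF3 had 4 loops (1.09 to 10.2), JUN 3 (0.619 to 8.77) and FOS 0, for which a separate, one-sided limit of 3 is given. Of the 10 pairs among the genes with a loop, the intervals did not overlap in 3, namely JUNB against FOSL2, ATF3 and JUN. Neighbours in this order, such as JUNB and JUND or ATF3 and JUN, were therefore not separated by counting error alone. The intervals cover counting error only, and loops that share a bin are not independent.

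**Figure D1:**
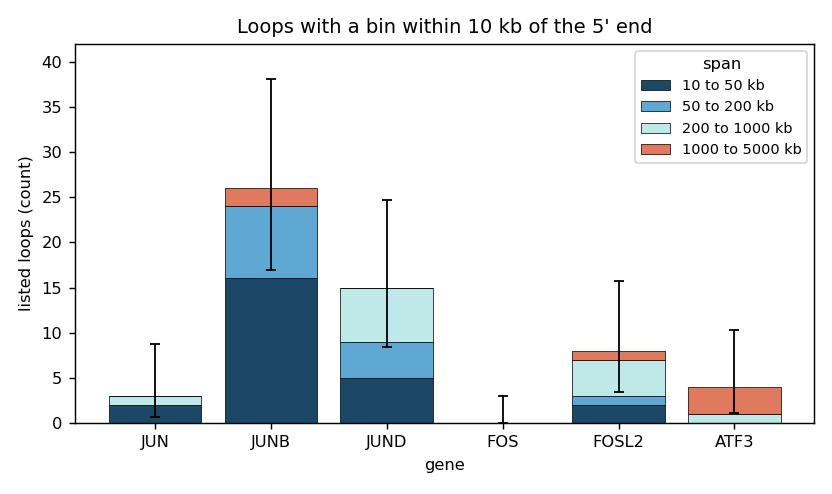
Number of listed loops (y axis, count) for each AP-1 gene (x axis), with the colours giving the span of the loops and the bars the exact 95% Poisson interval (for FOS, the one-sided limit of 3 for a count of 0). JUNB stands highest with 26 loops, 16 of them of 10 to 50 kb, and FOS has none.

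Against windows centred on bins with a loop, JUNB lay in the upper tail and JUN and ATF3 near the middle. Among 34902 windows of 20 kb, each centred on a bin with a loop (an anchor), 2.01% held as many loops as JUNB, 7.36% as many as JUND and 23.0% as many as FOSL2. For ATF3 and JUN these shares were 51.4% and 64.3%, with a median of 4 loops per window. With half-windows of 5 and 20 kb, the share was 3.57% and 15.0% for JUND and 2.09% and 0.805% for JUNB. With a minimum span of 20 kb, JUNB had 16 loops and JUND 14, with shares of 5.01% and 6.81%. These windows overlap and need not be promoters, and every one holds at least 1 loop. On a 2 kb grid, windows that hold a loop gave lower shares, 0.604% for JUNB, 28.8% for ATF3 and 40.7% for JUN. Where ATF3 and JUN stand thus depends on the windows compared. Of all 20 kb windows on that grid, counted from the first to the last anchor of each chromosome, 86.2% held 0 loops, as did that of FOS. These windows likewise need not be promoters, so how often a promoter window is empty is not known. Unlike the shares of the other genes, this share counts empty windows.

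**Figure D2:**
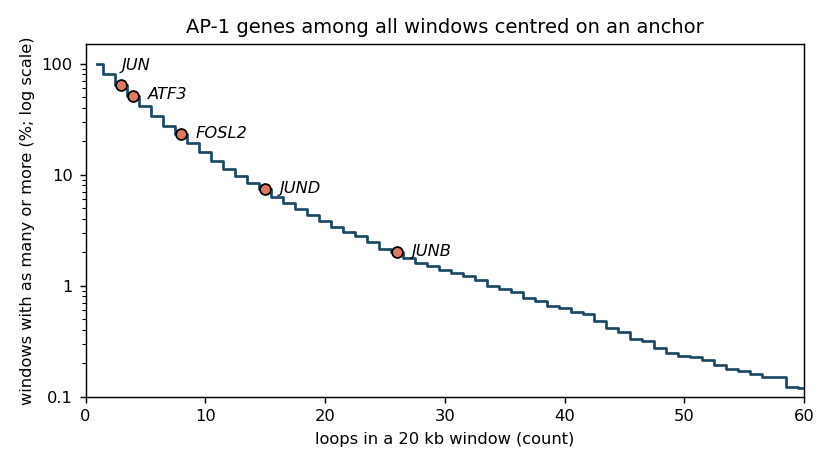
Share of the 34902 windows of 20 kb centred on an anchor (y axis, percent, log scale) that hold at least the number of loops on the x axis (count). Points mark the AP-1 genes with a loop, from JUN at 64.3% to JUNB at 2.01%, and FOS with 0 loops is not shown.

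JUNB and JUND, the genes with the most loops, also had the most loops in their surroundings. Within 1 Mb on either side of the 5′ end, 187 loops were listed around JUNB and 172 around JUND, against 105 around FOSL2, 50 around FOS, 30 around ATF3 and 18 around JUN. The window of a gene held 16.7% of these loops for JUN, 13.9% for JUNB, 13.3% for ATF3, 8.72% for JUND, 7.62% for FOSL2 and 0% for FOS. JUN, low in loops, thus had the highest share of its surroundings, with 3 of 18. The part of local loop density in the counts was not tested.

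JUNB encodes a JUN protein that is a weaker activator than JUN itself in many settings and restrains proliferation in keratinocytes. Its 5′ end (chr19:12902310, plus strand) lies in the bin chr19:12902001-12904000, which had 5 loops. The bin just upstream had 6 loops, a number reached by 3.05% of all anchors, and 9 of the bins in the window had at least 1. JUNB loops were thus spread over the window rather than gathered at the 5′ end. Of the 26 loops, 3 joined bins within the window, 14 led to upstream partners and 9 to downstream partners.

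Just upstream of its window, JUNB had a dense set of partners. On chromosome 19, 4 bins from 12878001 to 12892000, at distances of 11.3 to 23.3 kb from the 5′ end to their centres, took 9 loops with 10 contacts from 6 bins of the JUNB window. These are 34.6% of the JUNB loops, and among them was the only JUNB loop with 2 contacts, a loop of 10 kb from chr19:12890001-12892000 to chr19:12900001-12902000. The 9 loops were short, with spans of 10, 10, 12, 18, 18, 18, 22, 26 and 34 kb, and the shortest span in the list is 10 kb. Most would thus be removed by a minimum span of 20 kb. The bins of this set were themselves well connected, with 7 to 9 loops each in the whole list. Farther upstream, chr19:12780001-12782000 had 2 loops to JUNB and a coverage of 57, and chr19:12844001-12846000 had 1 loop and a coverage of 75.

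Downstream of JUNB, each partner bin had 1 loop to the gene. The 9 partners lay 14.7, 16.7, 46.7, 74.7, 90.7, 98.7, 169, 1643 and 4601 kb from the 5′ end. Most were thus within 200 kb, and the farthest of them gave the longest loop of the 6 genes, 4600 kb. Of the 17 partner bins of JUNB on either side, 0 had no loop other than those to JUNB, and their median number of loops was 4.

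JUND encodes the JUN protein that is expressed broadly and changes least on stimulation. Its 5′ end (chr19:18392432, minus strand) lies in the bin chr19:18392001-18394000, which alone had 12 of the 15 loops. Only 0.301% of the 34902 anchors had as many loops. The bin just downstream had 3 loops and a bin 10.6 kb upstream had 1, which it shared with the bin of the 5′ end. The loops of JUND were thus gathered on 1 bin. When only the bin of the 5′ end was counted, JUND led with 12 loops against 5 for JUNB and 5 for FOSL2.

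The partners of JUND were scattered over both sides. Upstream, 7 bins lay 28.6, 30.6, 46.6, 82.6, 207, 551 and 559 kb from the 5′ end, and the nearest of them, chr19:18420001-18422000, had 2 loops to JUND. Downstream, 6 bins lay 55.4, 161, 169, 281, 365 and 951 kb away. No loop of JUND had more than 1 contact, and its median span was 162 kb against 30 kb for JUNB. Of its 13 partner bins, 4 had no other loop in the list, and the best connected, chr19:18598001-18600000, had 6.

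JUNB and JUND lie on the same chromosome, with their 5′ ends 5.49 Mb apart. This exceeds the longest span in the list, 5 Mb, so a direct loop could not have been listed. Their loops shared 0 bins. The closest bins were 62 kb apart, chr19:17440001-17442000 joined to JUND and chr19:17502001-17504000 joined to JUNB, each by 1 contact.

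JUN encodes the founding member of the JUN family, which can activate its own gene. Its 5′ end (chr1:59249785, minus strand) lies in the bin chr1:59248001-59250000 with 1 loop, and the adjoining upstream bin had 2. The partners lay 18.8 and 28.8 kb downstream and 813 kb upstream, and each of the 3 loops had 1 contact. JUN was thus the member with the fewest loops among those with any, and the nearest partners were downstream of the 5′ end.

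**Figure D3:**
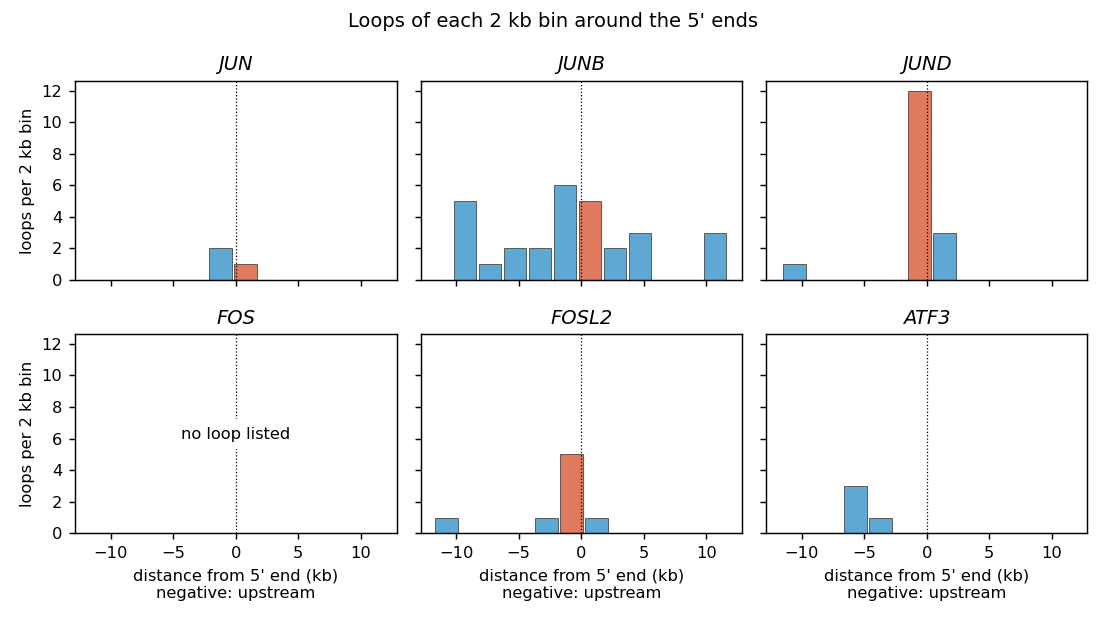
Number of loops of each 2 kb bin (y axis, count) against the distance of its centre from the 5′ end (x axis, kb, negative values upstream in the direction of the gene) for the 6 AP-1 genes, with the bin that holds the 5′ end in orange. The loops of JUND stand on the bin of the 5′ end, with 12, those of JUNB are spread over 9 bins, those of ATF3 stand on 2 upstream bins, and FOS has none.

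FOS encodes the prototype of the FOS family, a short-lived protein made shortly after stimulation. Its window (5′ end at chr14:75745481, plus strand) held 0 loops and 0 bins with a loop. The nearest bin with a loop, chr14:75726001-75728000, ended 17.5 kb upstream, and its 1 loop, with 1 contact, ran 36 kb farther upstream to chr14:75690001-75692000. On the downstream side the nearest was 123 kb away. Within 100 kb of FOS there were 8 loops, and 12 loops with spans of 220 to 4460 kb passed over the whole window without ending in it. The list thus held loops around FOS but none at FOS, and no coverage is listed for bins without a loop, so the H3K27ac signal at FOS is not known from these data. The methods describe the loops as associated with active p63 regions, so this 0, like the counts of the other genes, holds within that selection. The part of that selection in the counts was not tested.

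FOSL2, also called FRA2, encodes a FOS protein that lacks the strong activation domain of FOS and persists longer. The bin of its 5′ end (chr2:28615779, plus strand), chr2:28614001-28616000, had 5 of the 8 loops, and 3 other bins of the window had 1 each. As many loops as on this bin were found on 5.12% of all anchors. Upstream partners lay 12.8, 121, 501, 621, 689 and 1629 kb from the 5′ end, and downstream partners 43.2 and 273 kb. Of the 8 FOSL2 loops, 6 thus led upstream and 2 downstream, and the median span was 387 kb. As 7 of them rested on 1 contact, these values rest on few contacts, and a preference for 1 side was not tested.

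A loop of FOSL2, from chr2:27926001-27928000 over 688 kb to the bin of the 5′ end, had 2 contacts. Loops of 200 kb to 1 Mb with 2 or more contacts made up 1.19% of that class in the list. The exact Poisson interval of all 9 contacts of FOSL2 was 4.12 to 17.1.

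ATF3 encodes a stress-induced member of the ATF branch that often acts as a repressor. The bin of its 5′ end (chr1:212738676, plus strand) had 0 loops. The 4 loops started from 2 adjacent bins upstream, chr1:212732001-212734000 with 3 loops and chr1:212734001-212736000 with 1, whose centres lay 5.68 and 3.68 kb from the 5′ end. All 4 were long, with spans of 728, 1042, 1818 and 2044 kb, and each had 1 contact. The partners lay 734 and 1048 kb upstream and 1812 and 2040 kb downstream, and 3 of the 4 had no other loop. RefSeq lists a second start of ATF3, 49.6 kb from the first on GRCh38, which the window does not hold.

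**Figure D4:**
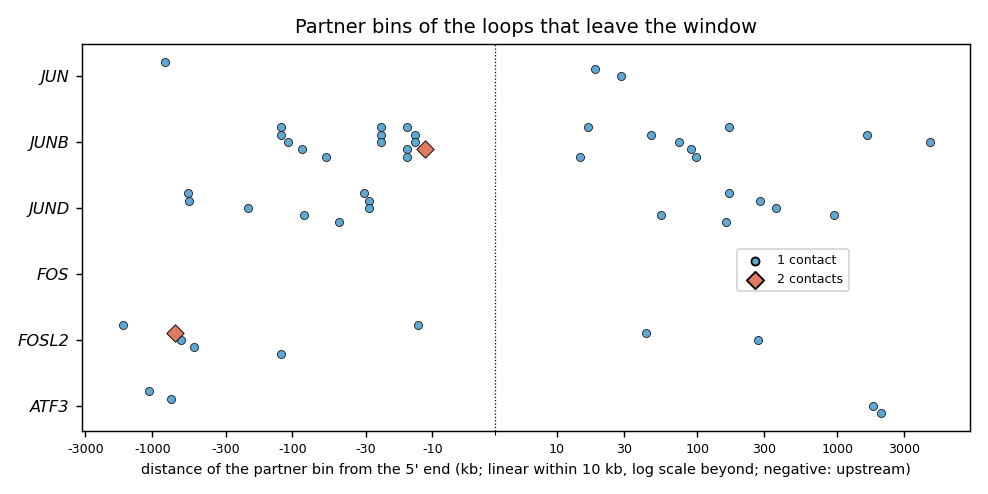
Distance of each partner bin from the 5′ end (x axis, kb, linear within 10 kb and logarithmic beyond, negative values upstream) for the AP-1 genes (rows), 1 point for each of the 52 loops that leave the window, with diamonds for loops of 2 contacts. JUNB partners gather 11.3 to 23.3 kb upstream, while all ATF3 partners lie at least 734 kb away.

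Over the 6 genes, 31 loops led upstream, 21 downstream and 4 stayed within a window. The median span was 83 kb (interquartile range 21.5 to 399.5 kb) against 120 kb (36 to 398 kb) in the whole list. Loops of 10 to 50 kb made up 44.6% of the AP-1 loops (25 of 56, exact binomial interval 31.3 to 58.5%). In the rest of the list they made up 31.0% (30.5 to 31.5%). Of these 25, JUNB held 16, JUND 5, JUN and FOSL2 2 each and ATF3 0, so the share rests mostly on JUNB. The interval treats loops as independent though some share a bin, and a shift over the 6 genes was not tested. Loops of 1 to 5 Mb made up 10.7% (4.03 to 21.9%) against 11.7%, and 3 of these 6 belonged to ATF3. The genes thus differed in reach, from JUN and JUNB with median spans of 28 and 30 kb to ATF3 with 1430 kb. Given 3 and 4 loops at JUN and ATF3, these medians rest on few contacts.

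Loops with 2 or more contacts numbered 2 of 56 at the AP-1 genes, or 3.57% (exact binomial interval 0.435 to 12.3%), against 3.36% in the whole list. They belonged, 1 each, to JUNB and FOSL2. The other 54 rested on 1 contact, among them all loops of JUN, JUND and ATF3.

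The list gives a second count, read as the coverage of the first bin of each loop, the bin at the lower position. Among the first bins in the windows, those with the highest coverage were at ATF3, FOSL2 and JUN. Bins that are only second bins, such as that of the JUN 5′ end, have no coverage listed. The first bin at JUN (chr1:59250001-59252000) had a coverage of 43, that of the FOSL2 5′ end 49 and the more covered of the 2 first bins of ATF3 (chr1:212732001-212734000) 64, against a median of 12 (interquartile range 8 to 20) over 21636 first bins. As much coverage was found in 5.56%, 4.03% and 1.94% of first bins, respectively. The other first bin of ATF3 had a coverage of 13, close to that median, and the other first bin of FOSL2 had 39. Each of the 3 most covered bins had 1 contact to a higher position, but over both directions the bin of the FOSL2 5′ end had 6 contacts, that of ATF3 3 and that of JUN 2. Of first bins within 20% of the same coverage, 40.5% for JUN, 38.0% for FOSL2 and 31.1% for ATF3 likewise had 1 contact to a higher position.

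The bins of the JUND and JUNB 5′ ends had a lower coverage than these 3. The bin of the JUND 5′ end had a coverage of 29 and 6 contacts to higher positions (12 over both directions), and 2.28% of the 2196 first bins of like coverage had as many. For the bin of the JUNB 5′ end, with a coverage of 22 and 4 contacts to higher positions (5 over both directions), this share was 6.37% of 3485 bins. The other 5 first bins of the JUNB window had coverages of 8 to 24, and the other first bin of JUND had 18. The median coverage of first bins within 1 Mb was 11 around JUND, 12 around JUNB and FOS, 13 around ATF3, 14 around JUN and 16.5 around FOSL2.

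**Figure D5:**
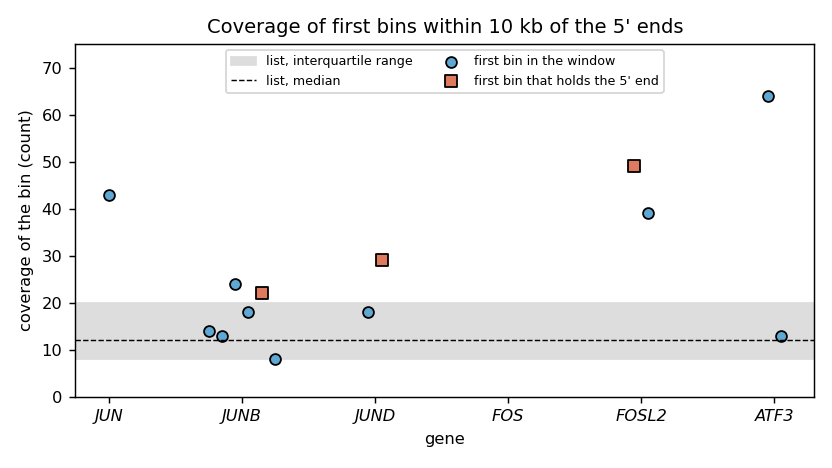
Coverage (y axis, count) of each first bin in the windows of the AP-1 genes (x axis), with squares for bins that hold the 5′ end, the dashed line for the median of all 21636 first bins and the grey band for their interquartile range. JUN has 1 bin at 43, FOSL2 has bins at 39 and 49, and ATF3 has bins at 13, inside the band, and 64. JUNB lies between 8 and 24, JUND at 18 and 29, and FOS has no first bin.

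The genes next to each AP-1 gene were taken from the order of protein-coding genes in RefSeq (GRCh38.p14) and were not laid over the loops. JUN lies between MYSM1 and FGGY, JUNB between HOOK2 and PRDX2, and JUND between IQCN and LSM4. FOS lies between TMED10 and JDP2, itself a gene of an AP-1 repressor, FOSL2 between BABAM2 and PLB1, and ATF3 between NENF and GARIN4. No partner bin was assigned to any of these genes. The other AP-1 genes FOSB, FOSL1, ATF2, ATF7, BATF, BATF2, BATF3 and JDP2 were not placed, because no annotation of the build of the list was used here.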

How the data were processed

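H3K27ac HiChIP of KYSE180 cells was done in 2 libraries of 1 condition. According to the methods, the authors ran HiC-Pro for alignment and filtering. They used FitHiChIP (mode Peak-To-All) to call loops associated with active p63 regions, and kept those with H3K27ac at each end. Versions and thresholds are not given in the sources used here. The submitters' processing notes name hg19, and listed positions start beyond the end of 12 hg38 chromosomes. The deposited values are raw counts in 2 unnamed columns, taken here to be the contacts of a loop and the first bin's coverage, since the former exceeded the latter in 0 of 21636 first bins. Library depth is unknown, and the coverage of listed first bins sums to 368661. Bins are 2 kb, and distances run to bin centres. The 6 genes, the windows and the motifs were chosen with earlier results of these data known. The text names these 6 genes with all their loops, and neighbours by order. Intervals (95%, exact) cover counting error only, and a count of 0 has a limit of 3. Window counting was tested on simulated lists. Strand came from GENCODE. Leucine zipper sequences are not shown. Alternatives were half-windows of 5 and 20 kb, the bin of the 5′ end, a minimum span of 20 kb, at least 2 contacts, other counting units and other background windows. Tables were made with pandas 2.3.3 and numpy 2.4.6 in Python 3.11.15, intervals with scipy 1.17.1 and plots with matplotlib 3.10.9.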

Additional observations from a re-analysis of the deposited data

How the results depend on the processing

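Of 35 recomputed values over the 6 genes, 25 stayed within 1.5 times the value reported (for the share of loops with 2 or more contacts, within its interval) and 10 moved. Of 156 values of single genes, 101 stayed and 55 moved. Those that stayed include values of FOS that could not move. A count of 0 stays 0 under any narrower setting, and its share of windows is 100% throughout. In place of 56 loops and 58 contacts, half-windows of 20 kb gave 88 loops and 93 contacts, with 54 loops at JUNB, 1 at FOS and still 15 at JUND. The bin of the 5′ end alone gave 23 loops, 24 contacts and 23 partner bins in place of 45, with 0 loops at ATF3. Loops of at least 2 contacts numbered 2, with 4 contacts and 2 partner bins. The median over the 6 genes of the share of windows with as many loops was then 100% in place of 37.2%. That 100% was fixed in advance, since every window held at least 1 such loop and no gene had more than 1. On the 2 kb grid the median was 19.3%. Each of these medians counts FOS at 100%, which is likewise fixed for a gene without a loop. Wider windows hold more bins and a minimum of contacts removes loops by construction. No paired analysis was possible because the list merges the libraries of 1 condition, and leaving out a replicate was likewise not possible. With 54 of 56 loops on 1 contact, the counts do not settle whether a gene with few loops, such as JUN, differs from one without, such as FOS. This was not tested.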
